A study of Mus musculus with 21 samples.

Results

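The chemokines of brain inflammation described here are 10 genes of the CXC, CC and CX3C families, namely Cxcl10, Cxcl9, Cxcl16, Cxcl12, Ccl2, Ccl12, Ccl3, Ccl4, Ccl5 and Cx3cl1, among 48474 rows of a bulk RNAseq count table. They were listed by symbol and were selected on the same comparison of genotypes in the same mice, so their difference between genotypes is given as a description without a test. All 10 had a row in the table, 6 of them reached the level of counts required for a test, and the other 4 (Cxcl9, Ccl2, Ccl3 and Ccl4) are given with their counts in every group.

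The neocortex of 21 mice was sequenced, from 11 control mice labelled WT (wild-type in the following) and 10 rNLS8 mice labelled TG. The rNLS8 mouse is a model of amyotrophic lateral sclerosis in which human TDP-43ΔNLS, a TDP-43 without its nuclear localization signal, is switched on in adult mice that carry both a neurofilament heavy chain driver and a tetracycline-controlled transgene. According to the design text, the controls are littermates that carry 1 of these transgenes only, and the driver acts almost exclusively in neurons. Cohort A held 4 wild-type and 3 rNLS8 mice, and cohort B held 7 of each. The labels give these cohorts as batches A and B.

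Every mouse, control or transgenic, received 350 µg of an antisense oligonucleotide without a target, in 10 µL, by injection into the cerebral ventricles at 17 to 19 weeks of age. The transgene was kept off by doxycycline at 200 mg/kg of diet until 2 weeks after this injection and was on for the last 3 weeks. No mouse without the oligonucleotide is in the data used here, and sex is not labelled per mouse, while the study states that rNLS8 mice were not separated by sex. The labels name neocortex and the study's methods brain cortex, whereas a figure legend of the study names hippocampus for these mice.

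Chemokines are small secreted proteins that guide leukocytes and glia through G protein-coupled receptors. Cxcl9 and Cxcl10 are classical interferon-induced ligands of Cxcr3, Ccl2 and Ccl12 are ligands of the monocyte receptor Ccr2, and Ccl3, Ccl4 and Ccl5 attract myeloid cells and T cells. Cxcl12 and Cx3cl1 are constitutive in the brain, where Cx3cl1 (fractalkine) is made by neurons and read by Cx3cr1 on microglia.

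The bases upstream of the start sites are shown first, as a description. RefSeq on GRCm38.p6 gave a promoter window for 6 of the 10 genes (Cxcl9, Cxcl10, Cxcl12, Cx3cl1, Ccl12 and Ccl3), and the table of windows used here has none for Cxcl16, Ccl2, Ccl4 and Ccl5. Windows of 300 bases, from 250 before to 50 after the start, were searched on both strands for the core of the interferon-stimulated response element (GAAANNGAA), the gamma-activated site (TTCNNNGAA) and a kappaB core (GGGANNTTC). The 250 bases before the start are printed 5′ to 3′ on the strand of the gene, for the 3 genes with a match and for one gene each that was higher (Ccl12) or lower (Cxcl12) in rNLS8 mice and had none. Capitals mark the matches.
Cxcl10, chr5:92348890-92349139, minus strand: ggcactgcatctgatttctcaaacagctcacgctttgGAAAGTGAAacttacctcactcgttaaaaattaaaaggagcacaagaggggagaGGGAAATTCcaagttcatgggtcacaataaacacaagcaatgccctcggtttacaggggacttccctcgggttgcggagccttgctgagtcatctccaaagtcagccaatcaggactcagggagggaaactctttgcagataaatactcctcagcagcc
Cxcl9, chr5:92328080-92328329, minus strand: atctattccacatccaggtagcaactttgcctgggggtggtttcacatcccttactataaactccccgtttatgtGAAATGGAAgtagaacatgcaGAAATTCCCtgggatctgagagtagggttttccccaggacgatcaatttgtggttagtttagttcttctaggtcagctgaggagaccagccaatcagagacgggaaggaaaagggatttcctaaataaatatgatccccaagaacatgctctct
Ccl3, chr11:83649379-83649628, minus strand: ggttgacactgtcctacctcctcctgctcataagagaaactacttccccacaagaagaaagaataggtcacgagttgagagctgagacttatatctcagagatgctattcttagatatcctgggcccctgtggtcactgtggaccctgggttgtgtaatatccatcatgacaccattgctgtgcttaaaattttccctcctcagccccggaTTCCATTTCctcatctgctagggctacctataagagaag
Ccl12, chr11:82101595-82101844, plus strand: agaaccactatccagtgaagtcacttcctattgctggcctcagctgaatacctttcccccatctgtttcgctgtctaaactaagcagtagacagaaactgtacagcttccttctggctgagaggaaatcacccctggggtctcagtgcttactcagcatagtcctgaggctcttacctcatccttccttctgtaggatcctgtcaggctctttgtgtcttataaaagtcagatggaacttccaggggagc
Cxcl12, chr6:117168285-117168534, plus strand: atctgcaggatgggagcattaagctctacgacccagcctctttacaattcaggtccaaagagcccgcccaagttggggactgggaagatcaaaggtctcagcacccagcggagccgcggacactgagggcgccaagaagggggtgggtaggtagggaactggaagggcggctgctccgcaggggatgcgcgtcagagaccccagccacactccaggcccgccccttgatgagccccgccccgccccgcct

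In Cxcl10, GAAAGTGAA lay from -213 to -205 and GGGAAATTC from -159 to -151 relative to the start. In Cxcl9, GAAATGGAA lay from -175 to -167, and the kappaB core was read on the opposite strand as GAAATTCCC from -154 to -146. The Ccl3 window held the response element core on the opposite strand, TTCCATTTC, from -39 to -31.

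Matches of different motifs did not overlap in these windows, and the gamma-activated site was found in none of the 6. Of 32851 mouse promoter windows of this length, 8.56% held the response element core, 3.94% the kappaB core, 8.30% the gamma-activated site, and 0.387% both of the first motifs. A match is a description of the letters and not a measured binding site.

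Between 20700912 and 22263809 reads per mouse were counted, and 3 counts, the limit that a count of 0 allows, correspond to about 3 normalized counts in each mouse. A normalized count is a count divided by the effective library size after TMM normalization and multiplied by the mean effective library size, and it holds reads of all cells of the tissue. In bulk tissue, fewer cells of a type and less RNA per cell cannot be told apart. The rNLS8 mouse T60303 of cohort A was the highest rNLS8 mouse for 8 of these genes, so ratios are also given without it.

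The interferon-induced ligands of Cxcr3 were low in wild-type mice. Cxcl10 (ENSMUSG00000034855.13, chromosome 5, 92346638 to 92348889, minus strand) had a lowest, median and highest value of 0, 2.09 and 11.6 normalized counts in wild-type mice and of 46.0, 140.5 and 244 in rNLS8 mice. All 10 rNLS8 mice were above every wild-type mouse, with T_70267 lowest and T60303 highest among them and T61345 highest among the wild-type mice. The means were 3.56 ± 3.33 (SD, n = 11) and 142 ± 53.2 (SD, n = 10), which is 40.0-fold, or 36.9-fold without T60303.

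The log2 fold change of Cxcl10 was 5.31 (standard error, SE, 0.29), the highest of the 18248 genes tested. Since the gene was selected on this comparison, its rank is a description. It shares 133 exon bases with the antisense gene Art3, whose counts were between 30 and 67 in wild-type and between 32 and 74 in rNLS8 mice. Reads of the 2 genes cannot be told apart in the shared bases unless the counting used strand, which is not given in the sources used here.

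Cxcl9 (ENSMUSG00000029417.9, chromosome 5, 92321347 to 92328079, minus strand), the neighbour of Cxcl10, stayed below the level required for a test. It had 8 counts in the 11 wild-type mice together and 64 in the 10 rNLS8 mice. In normalized counts, wild-type mice ranged from 0 to 2.09 with a median of 0, and rNLS8 mice from 0.957 to 14.2 with a median of 4.89. The groups overlapped, since T_70252 held a single count while 9 of 10 rNLS8 mice were above every wild-type mouse. The ratio of the means was 8.20, or 7.01 without T60303.

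Cxcl16 (ENSMUSG00000018920.11, chromosome 11, 70453983 to 70459984, minus strand), a membrane-bound ligand of Cxcr6 that can be shed, was the only one of the higher members with at least 10 counts in every wild-type mouse. It ranged from 16.3 over a median of 25.5 to 36.5 normalized counts in wild-type mice and from 31.2 over a median of 55.7 to 149 in rNLS8 mice. Most rNLS8 mice (8 of 10) were above every wild-type mouse, and T_70261 and T_70267 were below the highest wild-type mouse, T61334. The log2 fold change was 1.25 (SE 0.20), and it was 1.02 without T60303, whose value was more than that of any other mouse.

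The table holds a further row for a copy of this gene, Cxcl16-2, with 940 counts against 904 and no more than 8 counts between the rows in any mouse, so both rows were read as 1 gene. Whether they hold the same reads or reads divided between the copies was not tested, and in the latter case the level printed for Cxcl16 is too low. Cxcl16 also shares 552 exon bases with the antisense gene Zmynd15, which itself had 55 counts over all wild-type mice and 123 over all rNLS8 mice. How many reads of either gene were counted for the other was not tested.

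**Figure D1:**
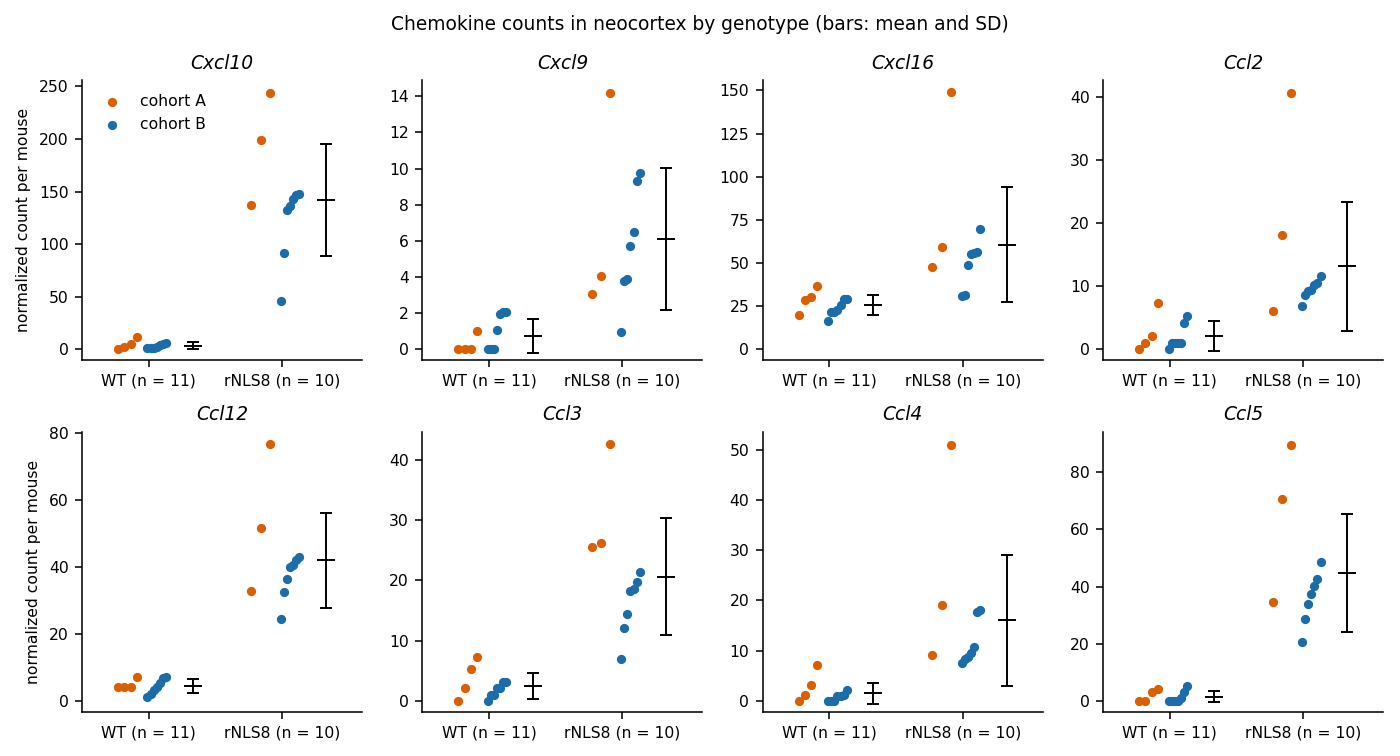
Normalized counts per mouse (linear axis) of the 8 chemokines with higher means in rNLS8 mice. Points are mice, coloured by cohort, and bars show the mean and SD of 11 wild-type and 10 rNLS8 mice. T60303 is the highest cohort A point in each of the 8 panels, from 14.2 normalized counts for Cxcl9 to 244 for Cxcl10.

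The ligands of Ccr2 were likewise near the limit of counting in wild-type mice. Ccl2 (ENSMUSG00000035385.5, chromosome 11, 82035571 to 82037453, plus strand), a main attractant of monocytes, had 23 counts in all wild-type mice and 137 in all rNLS8 mice. Its lowest, median and highest normalized counts were 0, 1.03 and 7.38 in wild-type mice against 6.12, 9.82 and 40.6 in rNLS8 mice. T61342 and T_70267 were below the highest wild-type mouse, T61345, and the other 8 rNLS8 mice were above it. The ratio of the means was 6.01, and it was 4.62 without T60303, whose 43 counts stood against 18 counts in the next mouse, T61340.

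Ccl12 (ENSMUSG00000035352.3, chromosome 11, 82101845 to 82103400, plus strand), a mouse chemokine that also signals through Ccr2, separated the genotypes fully. Wild-type mice ranged from 1.04 over a median of 4.21 to 7.22 normalized counts and rNLS8 mice from 24.5 over a median of 40.2 to 76.5. The lowest rNLS8 mouse was T_70267 and the highest T60303. Its log2 fold change was 3.20 (SE 0.21), and the ratio of the means was 9.31, or 8.45 without T60303.

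The inflammatory CC chemokines Ccl3, Ccl4 and Ccl5 lie in a cluster on chromosome 11. Ccl3 (ENSMUSG00000000982.5, chromosome 11, 83647844 to 83649355, minus strand) ranged from 0 over a median of 2.11 to 7.19 normalized counts in wild-type mice and from 6.86 over a median of 19.2 to 42.5 in rNLS8 mice. Only T_70267 among the rNLS8 mice was below the highest wild-type mouse, T61333. The ratio of the means was 8.36, or 7.36 without T60303.

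Ccl4 (ENSMUSG00000018930.3, chromosome 11, 83662584 to 83664683, plus strand) had 16 counts over all wild-type mice and 167 over all rNLS8 mice. Values ran from 0 over a median of 1.04 to 7.19 normalized counts in wild-type mice and from 7.54 over a median of 10.2 to 51.0 in rNLS8 mice. The groups did not overlap, but the lowest rNLS8 mouse (T_69526, 8 counts) and the highest wild-type mouse (T61333, 7 counts) were 1 count apart. T60303 carried 54 of the 167 counts, and the ratio of the means fell from 10.6 to 8.04 without it. In RefSeq the spans of Ccl3 and Ccl4 share 755 bases on opposite strands, so their counts are uncertain where the counting ignored strand.

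Ccl5 (ENSMUSG00000035042.2, chromosome 11, 83525778 to 83530518, minus strand) was at 0 counts in 6 of 11 wild-type mice. The wild-type values ran from 0 over a median of 0 to 5.18 normalized counts, and the rNLS8 values from 20.6 over a median of 38.7 to 89.7. All 10 rNLS8 mice were above every wild-type mouse, with T_70267 lowest and T60303 and T61340 highest. Its log2 fold change of 4.83 (SE 0.37) was second to that of Cxcl10 among all genes tested, and the ratio of the means was 29.9, or 26.6 without T60303.

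Both constitutive chemokines were lower in rNLS8 mice. Cxcl12 (ENSMUSG00000061353.11, chromosome 6, 117168535 to 117181367, plus strand), the ligand of Cxcr4 and of the scavenger Ackr3, ranged from 1465 over a median of 1734 to 1976 normalized counts in wild-type mice and from 1304 over a median of 1415 to 1534 in rNLS8 mice. The groups overlapped in 1 wild-type mouse, T_69527, which was below 3 rNLS8 mice. The means were 1740 ± 130.3 (SD, n = 11) and 1416 ± 75.2 (SD, n = 10), a ratio of 0.814, and the log2 fold change was -0.30 (SE 0.045), or -0.22 with library size only.

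Cx3cl1 (ENSMUSG00000031778.13, chromosome 8, 94772009 to 94782427, plus strand) was the most abundant of the 10 genes. It ranged from 12373 over a median of 14324 to 17106 normalized counts in wild-type mice and from 8499 over a median of 10053 to 12282 in rNLS8 mice. The genotypes did not overlap, although the highest rNLS8 mouse, T61340, was close to the lowest wild-type mouse, T_70260. Its log2 fold change was -0.48 (SE 0.056), and the ratio of the means was 0.711. The summed level of 9 neuron markers was also lower, between 204360 and 255668 normalized counts in wild-type and between 146984 and 182788 in rNLS8 mice. Abundant genes weigh most in this sum, Camk2a above all. Of these markers 6 were lower, where 21.7% of all genes tested were, and Rbfox3, Slc17a7 and Tubb3 were not past the threshold. The part of these markers in the lower Cx3cl1 was not tested.

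**Figure D2:**
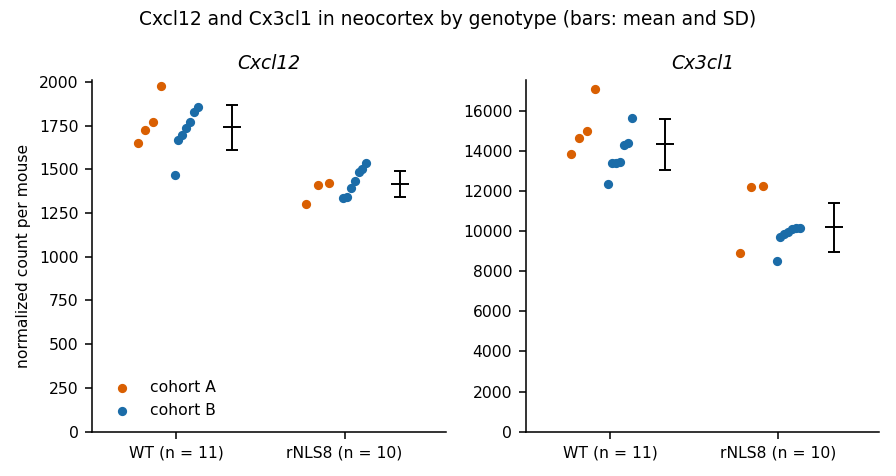
Normalized counts per mouse of Cxcl12 and Cx3cl1 on linear axes from 0, with points as mice coloured by cohort and bars as mean and SD. Cxcl12 overlaps between the genotypes in T_69527 at 1465 normalized counts, and Cx3cl1 does not overlap.

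At an adjusted p-value under 0.05 in edgeR's quasi-likelihood test that included cohort, 44.7% of the genes tested differed between the genotypes, 23.0% higher and 21.7% lower in rNLS8 mice. In numbers these were 4190 and 3964 genes, and 5832 and 2752 with scaling to the library size in place of TMM. All 6 members tested were past this threshold, 4 higher (Cxcl10, Cxcl16, Ccl5 and Ccl12) and 2 lower (Cxcl12 and Cx3cl1). Nothing is read from this number, since the members were selected on the same contrast and 6 of the 10 had no wild-type mouse with 10 counts. In a fit without a filter, the log2 fold changes of the untested members were 2.85 (SE 0.51) for Cxcl9, 2.59 (SE 0.40) for Ccl2, 3.09 (SE 0.31) for Ccl3 and 3.44 (SE 0.42) for Ccl4. The genotypes did not overlap in 4 of the 6 members tested (Cxcl10, Ccl5, Ccl12 and Cx3cl1), beside 7.63% of all genes tested, and in the untested Ccl4. Nothing is read from this either.

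Levels were compared between genes per kilobase of exon, as mean normalized counts. In wild-type mice Cx3cl1 was highest at 3646 ± 328 (SD), followed by Cxcl12 at 213 ± 15.9 (SD). The remaining 8 were all below 10, with Cxcl16 at 8.48 ± 1.90 (SD) and Ccl12 at 8.39 ± 3.78 (SD) above the others and Cxcl9 lowest at 0.247 ± 0.306 (SD). Cxcl16 and Ccl12 lay within their spread of each other, and so did Ccl3, Ccl4, Ccl2, Cxcl10 and Ccl5, whose means were between 1.56 and 3.21.

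In rNLS8 mice the order per kilobase changed below the constitutive genes. Cx3cl1 stayed highest at 2593 ± 309 (SD) and Cxcl12 next at 173 ± 9.20 (SD). Ccl12 followed at 78.1 ± 26.4 (SD), then Cxcl10 at 63.3 ± 23.6 (SD) and Ccl5 at 46.6 ± 21.6 (SD), and neighbours among these 3 lay within their spread. Ccl3, Ccl4 and Cxcl16 followed between 20.05 and 26.8, also within their spread, then Ccl2 at 11.6 ± 8.96 (SD) and Cxcl9 at 2.03 ± 1.30 (SD).

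Whether the difference between genotypes itself differed between the cohorts was not used to choose the genes and could be tested. The log2 fold change of Cxcl10 was 5.35 (SE 0.49) in cohort A alone and 5.29 (SE 0.34) in cohort B alone. For Ccl5 the values were 5.08 (SE 0.62) and 4.64 (SE 0.43), and for Ccl12 3.42 (SE 0.38) and 3.07 (SE 0.25). Each pair differed by less than its standard errors added together.

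For Cxcl16 the log2 fold change was 1.59 (SE 0.38) in cohort A and 1.06 (SE 0.19) in cohort B. In the interaction model this difference was 0.49 (SE 0.41, adjusted p = 0.880 in edgeR's quasi-likelihood test). Cxcl12 differed between cohorts by -0.11 (SE 0.094) and Cx3cl1 by 0.06 (SE 0.12), with adjusted p of 0.886 and 0.964.

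No member was past the threshold for the interaction of genotype and cohort, where 0% of all genes were, and none had an unadjusted p under 0.05, as 1030 genes did. With 3 rNLS8 mice in cohort A the intervals are wide, and the test does not show that the cohorts were alike. Cxcl10, Ccl5 and Ccl12 had 38, 16 and 48 counts over all wild-type mice. The SE of their interaction was 17.2, 1.19 and 0.52, so the test says little about these genes. Without a filter, the 4 untested members gave an unadjusted p of at least 0.155, the lowest being that of Cxcl9 (a difference of 1.91, SE 1.31).

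**Figure D3:**
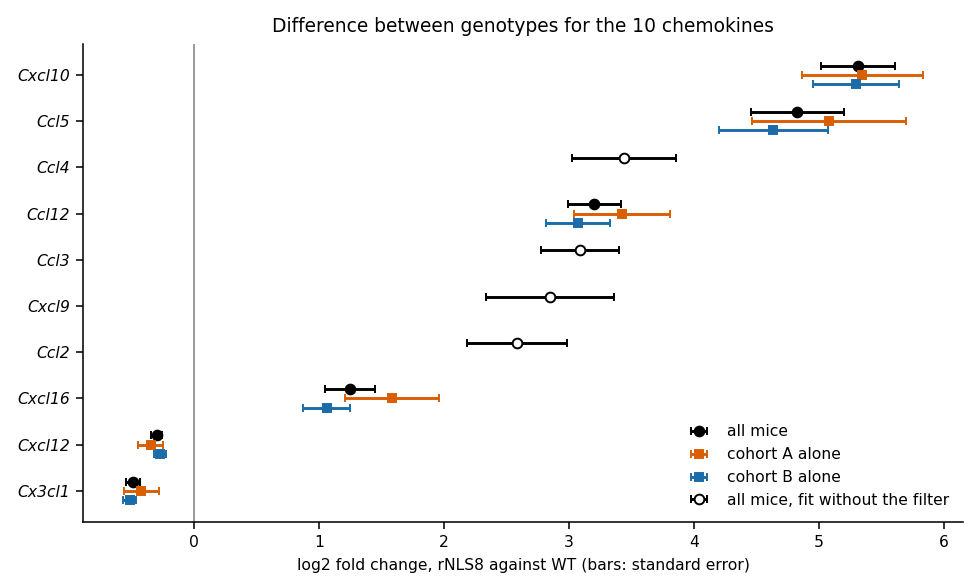
Log2 fold change of rNLS8 against wild-type mice with its SE for the 10 chemokines. Filled circles are all 21 mice, squares the cohorts alone, and open circles the 4 untested genes, shown from the fit without the filter. Over all mice, values run from -0.48 for Cx3cl1 to 5.31 for Cxcl10, and the cohorts lie on the same side of 0 for each gene tested.

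In wild-type mice alone, 6.49% of the genes tested differed between cohorts A and B. Cxcl16, Cxcl12 and Cx3cl1 were not among them, and Cxcl10, Ccl5 and Ccl12, with 38, 16 and 48 counts over all wild-type mice, had too few counts there for this test to say much (SE 0.73, 0.97 and 0.44). The differences (cohort A minus B) were between 0.05 for Cxcl12 and 0.66 for Cxcl10 on the log2 scale, and none had an unadjusted p under 0.05. Without a filter, Ccl4 differed by 1.79 (SE 0.88, unadjusted p = 0.0498, adjusted p = 0.362 in edgeR's quasi-likelihood test), from 11 counts in the 4 mice of cohort A and 5 in the 7 mice of cohort B. What differed between the cohorts, which the labels give as batches A and B, was not tested.

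Among the rNLS8 mice, T60303 was the highest for 8 of the 10 members, that is for every member other than Cxcl12 and Cx3cl1. Relative to the median rNLS8 mouse, its normalized counts were 1.74 times as high for Cxcl10, 4.14 times for Ccl2 and 5.02 times for Ccl4. T61340 of the same cohort was above the median for 7 of these 8 and below it for Cxcl9 at 0.826. At the other end, T_70267 of cohort B was the lowest for Cxcl10, Ccl3, Ccl5 and Ccl12, at 0.328 of the median for Cxcl10 and 0.358 for Ccl3, but not for Ccl4 at 1.06.

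T60303 was also the highest rNLS8 mouse for the summed levels of microglia markers (11646 normalized counts, where rNLS8 mice had a median of 9618) and of monocyte and border macrophage markers (423, with a median of 319), and likewise for astrocyte markers (100390, with a median of 86904). Wild-type mice had sums of 8150 to 9240 for microglia and of 191 to 321 for monocyte and border macrophage markers. For astrocyte markers the wild-type sums ranged from 90904 to 118537, so T60303 lay within the wild-type range there. The part of these markers in the chemokine levels of T60303 was not tested. Without T60303 and T61340, an alternative chosen after seeing the data, all 6 members tested kept their direction.

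**Figure D4:**
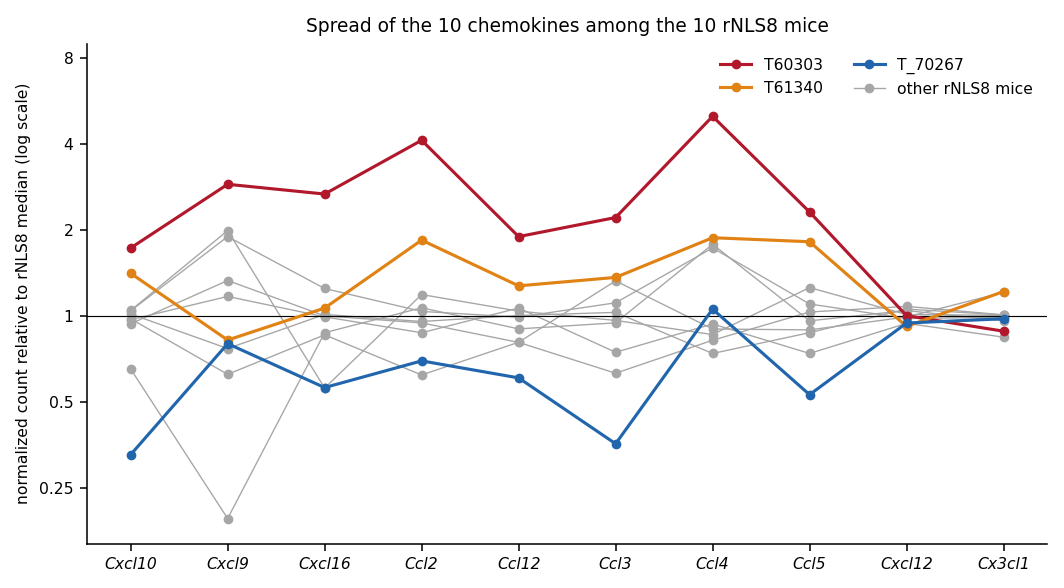
Normalized count of each chemokine in each of the 10 rNLS8 mice relative to the median rNLS8 mouse, on a log axis. T60303 lies highest for 8 genes, up to 5.02 for Ccl4, T_70267 lies lowest for 4, and all 10 mice lie between 0.845 and 1.22 for Cx3cl1.

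After the mean of each genotype and cohort was removed from log2 CPM values, Pearson's r over 21 mice was between 0.15 and 0.39 for the 6 pairs of Cxcl10, Cxcl16, Ccl5 and Ccl12. Their median was 0.24, or 0.18 without T60303. Of all 15 pairs among the 6 members tested, the farthest from 0 were Ccl12 with Cx3cl1 at -0.48, or -0.33 without T60303, and Cxcl16 with Cx3cl1 at -0.48, or -0.07 without T60303. These values share libraries and depth and rest on low counts in wild-type mice, and they are a description.

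Named by a rule as the 3 tested genes with the highest r, those most like Cx3cl1 were Clstn3 (0.91), Atp6ap1 (0.90) and Irf2bp1 (0.89), and those most like Cxcl12 were Id2 (0.84), Hunk (0.81) and Gm5817 (0.80). For Cxcl16 the first was its own copy row (0.98), followed by Mettl15 (0.84) and Fcgr2b (0.83). For Cxcl10 they were Angptl1 (0.74), Smim4 (0.74) and Abcg2 (0.72), for Ccl5 Ube2d-ps (0.83), Gm4371 (0.80) and Pax6 (0.79), and for Ccl12 Gm11266 (0.78), Plekha4 (0.78) and Amz2 (0.76). Each is the best of all genes tested over 21 mice, and 8 of these 18 were kept with Spearman's rho in its place.

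The receptors that read these chemokines were not part of the list and were tested in the same model. Of 23 signalling and atypical receptors, 6 had enough counts, and 1 of them was higher and 2 were lower in rNLS8 mice, against the same 44.7%. Cx3cr1, the microglial receptor of Cx3cl1, had 1259 ± 56.1 normalized counts (SD, n = 11) among the controls and 1316 ± 135 (SD, n = 10) among the rNLS8 mice (log2 fold change 0.07, SE 0.043, adjusted p = 0.196). With library size only it was 0.15 (adjusted p = 0.00837), past the threshold.

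Cxcr4, the receptor of Cxcl12, had 22.0 ± 8.49 (SD) normalized counts in controls against 27.1 ± 6.41 (SD) with the transgene (log2 fold change 0.33, SE 0.20, adjusted p = 0.184). Its log2 fold change was -0.37 among the mice of cohort A (adjusted p = 0.485) and 0.69 among those of cohort B (adjusted p = 0.0113), and the difference between cohorts had an adjusted p of 0.853.

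The other named receptors had too few counts for a test. Cxcr3, which reads Cxcl9 and Cxcl10, had 17 counts in all wild-type and 21 in all rNLS8 mice, so that its ligand Cxcl10 had 1479 counts in rNLS8 tissue where the receptor had 21. Cxcr6 had 7 and 26 counts, Ccr2 had 49 and 88, and Ccr1 had 57 and 85. Ranges of normalized counts overlapped between genotypes for all 4, for example from 1.04 to 7.38 against 3.92 to 12.1 for Ccr2.

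Atypical receptors take up chemokines without G protein signalling. Ackr3, which binds Cxcl12, had 187 ± 25.0 (SD) normalized counts in controls against 141 ± 15.3 (SD) with the transgene and fell by 0.40 on the log2 scale (SE 0.080, adjusted p = 0.000215). Ackr2, a scavenger of inflammatory CC chemokines, fell by 0.64 (SE 0.11, adjusted p = 2.81e-05). Ccrl2 rose by 0.35 (SE 0.14, adjusted p = 0.0466), close to the threshold, and 14 of 21 fits that left out 1 mouse gave an adjusted p above 0.05, up to 0.105 without T_70261. DESeq2 with cohort gave an adjusted p of 0.0898 for it.

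Of 30 other chemokine genes, 10 were tested, 3 were higher and 3 lower in rNLS8 mice, where 44.7% of all genes tested differed in either direction. With library size only, Ccl21b was higher as well. Ccl6, a chemokine of myeloid cells, rose from 29.7 ± 7.32 (SD) to 79.6 ± 29.1 (SD) normalized counts, with no overlap of the genotypes (log2 fold change 1.43, SE 0.15, adjusted p = 5.98e-08). Its neighbour Ccl9 rose from 27.3 ± 4.52 (SD) to 64.9 ± 21.5 (SD), also without overlap (log2 fold change 1.26, SE 0.13, adjusted p = 4.15e-08). Ccl28, a mucosal chemokine, rose by 0.57 (SE 0.17, adjusted p = 0.00939), and its genotypes overlapped.

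Lower in rNLS8 mice were Ccl27b with a log2 fold change of -0.60 (SE 0.14, adjusted p = 0.00112) and, chosen after their values were seen, Ccl25 with -0.54 (SE 0.084) and Cxcl14 with -0.31 (SE 0.054). Ccl27a and Ccl27b, like Ccl21a and Ccl21b, are near-identical copies, between which the reads may have been divided in an unknown way. Cxcl11, the third ligand of Cxcr3, had 7 counts in wild-type and 18 in rNLS8 mice, and Cxcl1 had 1 and 22. Cxcl2 had 3 counts and Cxcl3 had 1 over all wild-type mice. Neither had a count in any rNLS8 mouse, where 3 counts over the group are the limit. Cxcl5 had 71 counts in wild-type and 62 in rNLS8 mice.

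Of 6 proteases that release or trim chemokines, Ctss and Mmp2 were higher and Dpp4 was lower, where 23.0% and 21.7% of all genes tested were. Ctss, a lysosomal protease of microglia that can release soluble Cx3cl1, rose from 1265 ± 81.6 (SD) to 2296 ± 359 (SD) normalized counts (log2 fold change 0.86, SE 0.070, adjusted p = 5.56e-10), and the lowest rNLS8 mouse at 1522 was above the highest wild-type mouse at 1412. Dpp4, which trims the end of Cxcl10 and Cxcl12, fell by 0.35 (SE 0.091, adjusted p = 0.00279). Adam10 and Adam17, the sheddases of Cx3cl1 and Cxcl16, had log2 fold changes of 0.04 (adjusted p = 0.577) and -0.03 (adjusted p = 0.758).

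Downstream of the receptors, 11 of 12 listed genes were tested, and 4 were higher and 3 lower, or 4 and 2 with library size only, where 44.7% of all genes tested differed. Gnai1, an inhibitory G protein subunit abundant in neurons, fell by 0.77 (SE 0.061, adjusted p = 3.63e-10), whereas Gnai2 rose by 0.42 (SE 0.047, adjusted p = 9.38e-08). Rac2 and Dock2, which drive migration in blood-derived cells and microglia, rose by 0.55 (SE 0.12, adjusted p = 0.000684) and 0.50 (SE 0.10, adjusted p = 0.000282). Both missed the threshold in cohort A alone, with adjusted p of 0.0748 and 0.0520, while their log2 fold changes there were larger, at 0.80 and 0.72.

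Genes known to induce chemokines were mostly higher, with 10 of 12 tested past the threshold and 0 lower, where 23.0% of all genes tested were higher. Irf7, an interferon-induced transcription factor, rose from 49.6 ± 12.9 (SD) to 464 ± 225 (SD) normalized counts, a log2 fold change of 3.21 (SE 0.20, adjusted p = 6.27e-12). Irf9, a subunit of the interferon-activated complex that binds response elements, rose by 1.84 (SE 0.11, adjusted p = 5.33e-12), and Ifngr2 rose by 0.78 (SE 0.046, adjusted p = 3.43e-12). In these 3 genes the lowest rNLS8 mouse was above the highest wild-type mouse. The interferon genes themselves were near 0, with 0 counts in wild-type and 1 in rNLS8 mice for Ifnb1 and 0 and 2 for Ifng. These interferon-linked changes are in the same mice and are no independent support for the chemokines, and their relation to them was not tested.

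**Figure D5:**
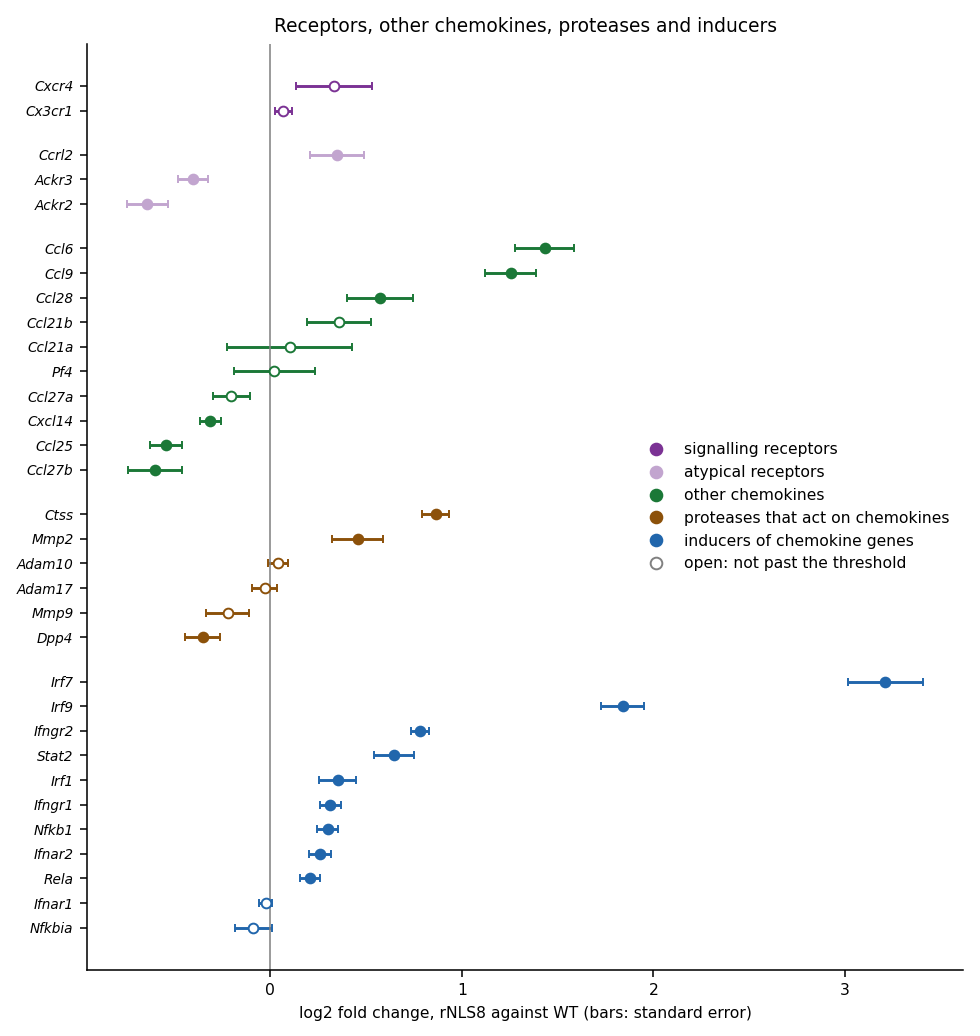
Log2 fold change of rNLS8 against wild-type mice with its SE for tested receptors, other chemokines, proteases and inducers. Filled points are past the adjusted threshold and open points are not. Irf7 at 3.21 and Irf9 at 1.84 lie farthest to the right, Ackr2 at -0.64 farthest to the left, and the signalling receptors Cxcr4 and Cx3cr1 lie near 0 with open points.

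Markers of the cells that chemokines attract were given beside these results. The T cell receptor chains Cd3e, Cd3d and Cd3g had 10, 3 and 5 counts in wild-type and 6, 6 and 12 counts in rNLS8 mice, and Cd8a had 5 and 18. The 10 T cell markers summed to between 251 and 508 normalized counts in wild-type and between 202 and 383 in rNLS8 mice, with 3 tested, Lck higher, Cd4 lower and Trbc2 not past the threshold. NK cell markers summed to at most 7.31 and 11.1, and neutrophil markers to at most 36.5 and 38.2, with none tested, and of 5 B cell markers 1 was tested (Ighm, lower).

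Of 10 monocyte and border macrophage markers, none of the 8 tested was past the threshold, although Lyve1 was with library size only. The untested Plac8 had 16 counts in wild-type and 148 in rNLS8 mice, and the untested Chil3 had 6 and 23. The sum of all 10 was between 191 and 321 in wild-type and between 208 and 423 in rNLS8 mice. Counts of markers in this and the preceding paragraph stand beside 23.0% of all genes tested higher and 21.7% lower in rNLS8 mice. With library size only these were 5832 and 2752 of 18248 genes. All 10 microglia markers were tested, with 5 higher and 1 lower (P2ry12), or 7 and 1 with library size only, and their sum was between 8150 and 9240 in wild-type and between 8595 and 11646 in rNLS8 mice. Of 9 astrocyte markers 1 was higher and 6 were lower, or 2 and 3 with library size only. Of 9 endothelial markers 1 was higher and 1 lower, the latter not with library size only, and of 9 neuron markers 6 were lower, or 5 with library size only. No marker of 9 for oligodendrocytes or of 6 for the choroid plexus was past the threshold, although the choroid plexus sum ranged from 432 to 47462 in wild-type mice. The part of these cell types in the chemokine levels was not tested.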

How the data were processed

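Bulk RNAseq was done on neocortex of 11 wild-type and 10 rNLS8 mice (RNA with RIN above 7, BGI mRNA libraries, paired reads of 100 bp). Reads were aligned by the authors to GRCm38, and the deposited values are whole, unnormalized counts by gene symbol. Their processing notes name HISAT, HISAT2, Bowtie, Bowtie2 and RSEM without roles or versions, and the counter, its strand setting and the annotation are not given in the sources used here. Of 48474 rows, 13329 had no count and 2542 were further copies of a symbol, which were kept. The mice are separate animals, with 1 library each.

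Analysis was done with edgeR 4.0.16 in R 4.3.3, using filterByExpr by genotype (minimum count 10, minimum total 15), TMM, the quasi-likelihood test with genotype and cohort, and Benjamini-Hochberg adjustment at 0.05 over 18248 genes. Two-sided p-values were used. Standard errors come from the fold change and the F statistic. Log2 CPM used a prior count of 2. The procedure was tested on simulated data. Reads carry no molecular identifiers, so limits cover counting error only. Alternatives were other size factors, DESeq2 1.42.0 with and without cohort, other filters, each cohort alone, no copy rows and leaving out each mouse. All members were named, with the receptors known for them, up to 4 called genes per list by size of change, and 3 genes per member by likeness. A few of them are left out of the text. The members and lists were chosen with earlier results of these data known. Gene positions are from the GENCODE annotation of GRCm38 and promoter bases from RefSeq on GRCm38.p6.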

Additional observations from a re-analysis of the deposited data

Results flagged for a closer look

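In groups of 4 to 10 mice, a mouse was noted where its gap to the nearest other mouse, relative to the range of its group on the log2 CPM scale, was above the 95% limit of Dixon's test. Chance gives this in about 1 of 20 groups. Over the 10 chemokines and the named genes, 61 groups of values were searched, about 3 are expected by chance and 10 were found, of which 5 had T60303 as the highest mouse.

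Among all rNLS8 mice, T60303 was far above the others for Cxcl16 (149 normalized counts, next 69.7 in T_70263, gap 0.493 of the range), Ccl4 (51.0, next 19.2 in T61340, gap 0.535), Ccl9 (123, next 70.4 in T61342, gap 0.595), Dock2 (216, next 142 in T_69531, gap 0.571) and Rac2 (133, next 86.8 in T61340, gap 0.522).

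For Ctss, T_70267 lay far under the remaining rNLS8 mice (1522 normalized counts, next 2133 in T_70261, gap 0.505) and below those of cohort B for Cxcl10 (46.0, next 91.9 in T_70252, gap 0.591). T_69531 was far below the other cohort B rNLS8 mice for Cx3cl1 (8499, next 9692 in T_70252, gap 0.730).

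Among the 4 wild-type mice of cohort A, T61333 was highest for Ccl12 (7.19 normalized counts, next 4.25 in T61331, gap 0.968) and for Cxcl9, where it held the only count of the group (1.03 against 0, gap 1). For Ccl12 it had 7 counts, and T61334, T61345 and T61331 had 4 each. Both flags rest on tied small counts, for which the share expected by chance does not hold.

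On the linear scale of normalized counts, chosen after seeing the data and applied to the 10 chemokines alone, T60303 was also far above the other rNLS8 mice for Ccl2 (gap 0.651 of the range) and Ccl12 (gap 0.482), with gaps of 0.674 for Cxcl16 and 0.732 for Ccl4, and T_70267 no longer stood apart for Cxcl10.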

How the results depend on the processing

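No paired analysis was possible because the labels give mouse numbers that the genotypes do not share. All 6 members tested kept their direction in every alternative that gave them a value. The number of members past the threshold, 6, was 10 without a filter, 3 with at least 10 counts required in every mouse and 9 with a filter by the full design, which was chosen after seeing the data. In each of these alternatives it moved with the number of members tested. In cohort A alone it was 6, with Ccl3 in and Cx3cl1 out (log2 fold change -0.42, SE 0.14), and 2195 genes were past the threshold. There 0 of 6 receptors tested were past it in edgeR's test, 1 of them with an unadjusted p under 0.05, and 3 of the other chemokines were. Without a filter, 5 receptors and 10 other chemokines were past the threshold. Cxcr4 had the opposite sign in cohort A alone, with a log2 fold change of -0.37, and the cause was not tested.

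Leaving out 1 mouse at a time gave 7805 to 8363 genes, 6 to 7 members, 2 to 3 receptors and 6 to 7 other chemokines past the threshold. The log2 fold changes ranged from 5.15 to 5.60 for Cxcl10, 4.65 to 5.25 for Ccl5, 3.07 to 3.32 for Ccl12, 1.02 to 1.32 for Cxcl16, -0.32 to -0.28 for Cxcl12 and -0.51 to -0.45 for Cx3cl1. Of the 18 genes most like a member, 8 were kept with Spearman's rho, 7 with only the genotype means removed and 8 without T60303, the latter chosen after seeing the data. Depth limits the members with few counts in wild-type mice, where ratios rest on between 8 (Cxcl9) and 48 (Ccl12) counts in all.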
